A study of Mus musculus with 17 samples.

Results

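The uroplakin genes Upk1a, Upk1b, Upk2, Upk3a and Upk3b were taken by name, and all 5 were found among the 21887 protein-coding genes of the gene table on chromosomes 1 to 19, X and Y. Chromatin binding at these genes was measured by CUT&RUN, in which a nuclease is brought by an antibody to the protein under study and the short DNA fragments cut free there are sequenced. Peeled mouse urothelium, the epithelium of the bladder stripped from the wall, came from animals with the genotype Stag2-WT (here WT) or Stag2-KO (here KO). Both genotypes had been treated alike with TMX, the inducing agent, 1 week before collection, and about 500000 cells went into each condition. The STAG2 antibody gave 2 WT and 2 KO libraries, the LIN54 antibody 3 WT and 2 KO, and the p130 antibody 3 WT and 3 KO. The labels call them biological replicates and do not give the Cre driver, strain, sex or age of the animals, nor whether animals were pooled. Of 17 samples, 15 had a peak list, and the 2 pMNase samples were not analysed here.

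Uroplakins are the membrane proteins of the umbrella cells that face the urine. UPK1A and UPK1B are tetraspanins, which span the membrane several times, and UPK2, UPK3A and UPK3B are their single-pass partners. UPK1A pairs with UPK2 and UPK1B with UPK3A or UPK3B, and the pairs assemble into the plaques that stiffen the luminal surface and keep it impermeable, so the genes are standard markers of urothelial differentiation. Cohesin is the ring-shaped complex that folds chromosomes into loops, and STAG2 is one of its subunits. LIN54 contacts DNA for the MuvB core, which together with p130 (encoded by Rbl2) forms DREAM, a repressor of the cell cycle genes in quiescence.

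Promoter sequences, from 250 bases before to 50 bases after the annotated start, are shown for the 3 uroplakin genes that RefSeq's promoter table for GRCm38.p6 (the assembly of mm10) holds. They are shown because most of the STAG2 and LIN54 summits at Upk1a and Upk3a fell in or near these windows, and several of those at Upk3b lay near its start. Capitals mark the motif words found. The Upk1a window is chr7:30612685-30612984 on the minus strand, that of Upk3a is chr15:85016891-85017190 on the plus strand and that of Upk3b is chr5:136038246-136038545 on the plus strand, each written 5′ to 3′.
Upk1a: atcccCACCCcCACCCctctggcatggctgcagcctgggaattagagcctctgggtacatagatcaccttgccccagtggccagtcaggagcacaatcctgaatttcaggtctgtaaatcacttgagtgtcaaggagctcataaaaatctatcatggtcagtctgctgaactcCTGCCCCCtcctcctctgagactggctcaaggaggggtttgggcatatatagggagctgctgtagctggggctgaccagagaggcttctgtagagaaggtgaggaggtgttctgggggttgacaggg
Upk3a: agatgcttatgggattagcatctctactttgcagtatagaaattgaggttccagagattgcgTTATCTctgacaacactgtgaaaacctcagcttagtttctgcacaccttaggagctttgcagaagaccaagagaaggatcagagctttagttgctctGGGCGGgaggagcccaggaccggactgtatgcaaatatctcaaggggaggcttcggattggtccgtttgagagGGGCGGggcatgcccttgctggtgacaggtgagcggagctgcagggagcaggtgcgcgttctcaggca
Upk3b: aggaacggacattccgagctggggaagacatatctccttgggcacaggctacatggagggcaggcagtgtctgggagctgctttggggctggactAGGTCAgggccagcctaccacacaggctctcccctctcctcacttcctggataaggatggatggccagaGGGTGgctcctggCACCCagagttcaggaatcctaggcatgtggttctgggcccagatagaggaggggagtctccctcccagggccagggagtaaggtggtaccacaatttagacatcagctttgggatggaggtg

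A total of 12 words were searched on both strands of these windows and of all 32851 promoters in the table, and a match is a description of the letters only. The Upk1a window held the KLF word CACCC at -245 and -239 bp from the start, a word present in 57.5% of all promoters. It also held the CTCF core word GGNGGCAG on the opposite strand at -77 bp, which 12.6% of promoters hold. Upk3a had the GATA word AGATAA on the opposite strand at -188 bp (11.2% of promoters) and the KLF and SP word GGGCGG at -91 and -18 bp (35.7%). Upk3b had CACCC at -73 bp and, on the opposite strand, at -86 bp, and the nuclear receptor half-site AGGTCA at -155 bp (16.3%). None of the 3 windows held the CHR word TTTGAA (17.9% of promoters), the E2F words TTTGGCGC or TTTCCCGC (1.56%), AP-1 TGANTCA (7.81%), GRHL AACCNGTT (2.09%), FOXA TGTTTAC (3.65%), ETS CCGGAAGT (3.89%) or the exact TATA box word TATAAA (13.6%). Near forms of a word were not searched, such as the letters tatata in the Upk1a window, so a missing word does not mean a missing element. The GC content was 54.7% for Upk1a, 52.3% for Upk3a and 58.7% for Upk3b, around the 52.7% that is the median of all promoters.

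The peak lists held 286079 to 539191 peaks each, most of them weak: only 316 to 25859 per list had a q of 0.01 or below. The STAG2 antibody, which checks the genotype labels, had 25859 and 13346 such peaks in the WT libraries and 1239 and 6777 in the KO libraries, so the KO groups were lower but not empty. The median background at sampled peaks was recovered as 1.53 to 2.49 fragments per base, by library. Sequencing depth itself was not measured. Where no peak is listed, none was called in that library, and absence of binding does not follow. Batch 1 held all libraries of STAG2 and LIN54, batch 2 held p130-WT replicate 1, and batch 3 the remaining p130 libraries. Peak lists do not measure expression, so they could not check the tissue label. Of 8 umbrella and luminal cell markers, 5 are the uroplakin genes themselves, and of the other 3 (Krt8, Krt18 and Krt20) Krt8 alone was occupied at q 0.01 in both STAG2-WT libraries. The same libraries marked 0 of 4 basal, 0 of 4 fibroblast, 0 of 3 smooth muscle, 0 of 3 immune and 0 of 2 endothelial markers and 0 of 3 markers of other tissues, and 12.6% of all genes, so that lists this short set no cell type apart. With all deposited peaks they marked Col1a1, Col1a2, Cd68, Pecam1, Alb and Myh6 of these lists, and Cd68 was marked at q 0.01 in both LIN54-KO libraries.

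An occupied gene is one with a summit no more than 500 bp from one of its 2 ends. The height of a peak is the fold of fragments over the background that the authors' peak caller estimated within the same library. A small constant is added to both, so the fold is below their plain ratio. The fold was used to describe and rank peaks inside a library and was not tested between genotypes. How many of all genes or clusters had folds apart between genotypes was not counted. Statements below that folds did not overlap therefore describe single places. Upk2 had the highest folds of the uroplakin genes, and it had them with the STAG2 antibody. No uroplakin gene end had a p130 peak with q of 0.01 or below in any of the 6 p130 libraries.

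**Figure D1:**
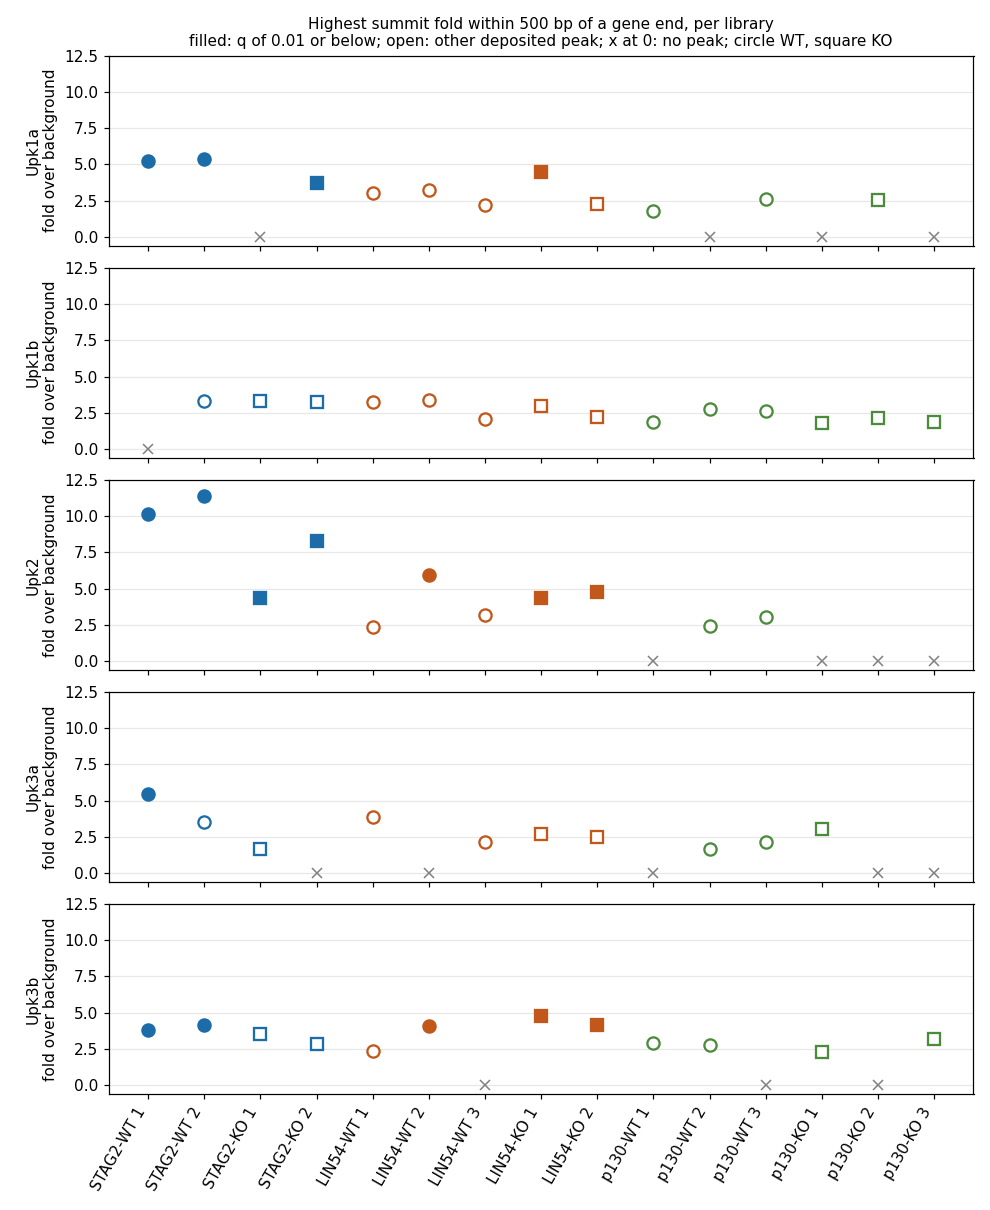
Highest summit fold over background (vertical axis) within 500 bp of an end of each uroplakin gene, in each of the 15 libraries (horizontal axis). Filled symbols are peaks with q of 0.01 or below, open symbols other deposited peaks and crosses at 0 libraries without a peak. Circles are WT and squares KO. Upk2 has filled symbols in all 4 STAG2 libraries, and Upk1b has none in any library.

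Upk2, the partner of UPK1A, lies at chr9:44452715-44454767. Its STAG2-WT folds were 10.1 and 11.4, from 28 and 27 fragments at the summit. Its STAG2-KO folds were 4.36 and 8.25, from 14 and 29 fragments. The WT values were above the KO values without overlap, yet all 4 libraries had q of 0.01 or below, and Upk2 was the only uroplakin gene of which that was true. Within its library, the end of Upk2 ranked 43 of 11094 occupied genes in STAG2-WT replicate 1 and 131 of 11611 in replicate 2. It ranked 320 of 8472 in STAG2-KO replicate 1 and 34 of 10113 in replicate 2. In rank, then, the genotypes overlapped: the KO library with the higher fold placed Upk2 nearer the top than either WT library did. The mean fold of the 2 libraries (± SD) was 10.8 ± 0.90 for WT, and that of the 2 KO libraries 6.31 ± 2.75.

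The 4 STAG2 summits at Upk2 lay inside the gene, at -288, -321, -355 and -314 bp from its higher-coordinate end. They therefore fell outside a window of 250 bp, in which the mean STAG2-WT fold at Upk2 was 2.51, from 1 library. LIN54 folds at the same end were 2.39, 5.96 and 3.16 in WT and 4.32 and 4.79 in KO. The WT range enclosed both KO values, and q was 0.01 or below in 1 of 3 WT libraries and in 2 of 2 KO libraries. p130 folds were 2.40 and 3.05 in WT replicates 2 and 3, and no peak was listed in WT replicate 1 or in any of the 3 KO libraries.

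Upk1a, a tetraspanin gene at chr7:30603092-30612734, is read from the higher coordinate to the lower, so its 5′ end is the higher one. Its STAG2-WT folds were 5.25 and 5.36, with summits at -300 and -104 bp from the start, the second of them inside the sequence printed above. STAG2-KO replicate 1 had no peak, and replicate 2 had a fold of 3.74 at -426 bp with q = 0.00755. Both WT values were thus above the single KO value, and so were their ranks within the library, 1761 of 11094 and 1645 of 11611 in WT against 1808 of 10113 in KO. LIN54 folds were 3.03 (at the 3′ end), 3.21 and 2.20 in WT and 4.45 and 2.30 in KO. These ranges overlapped, and only LIN54-KO replicate 1 passed q 0.01, at a summit at -73 bp. p130 folds were 1.77 (at the 3′ end) and 2.64 in WT replicates 1 and 3 and 2.54 in KO replicate 2, with no peak in the other 3 p130 libraries.

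Upk1b, the other tetraspanin gene, lies at chr16:38773182-38800203. It had a deposited peak in 14 of 15 libraries, more than any other uroplakin gene, but none reached q 0.01. STAG2 folds were absent and 3.30 in WT, and 3.30 and 3.24 in KO. LIN54 folds were 3.26, 3.35 and 2.05 in WT and 2.94 and 2.25 in KO. The p130 folds were 1.85, 2.75 and 2.64 in WT and 1.81, 2.13 and 1.85 in KO. The highest summit was at the lower end of the gene in some libraries and at the higher end in others, and the genotypes overlapped for LIN54 and p130.

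Upk3a, the single-pass partner of UPK1B in the plaque, lies at chr15:85017141-85022560. STAG2-WT folds were 5.46 and 3.55, at -260 and -229 bp from the start. In KO, replicate 1 had a fold of 1.65 and replicate 2 no peak. The WT values were the higher ones, but only WT replicate 1 reached q 0.01 (q = 6.46e-07), and replicate 2 did not (q = 0.0309). LIN54 folds were 3.87, none and 2.16 in WT and 2.73 and 2.48 in KO, and no LIN54 library passed q 0.01. p130 folds were 1.7 and 2.14 in WT replicates 2 and 3 and 3.04 in KO replicate 1, with no peak in the other 3.

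Upk3b, which encodes the alternative partner of UPK1B, lies at chr5:136038496-136044993. STAG2-WT folds were 3.78 and 4.18, and STAG2-KO folds were 3.55 and 2.83. The folds of the 2 groups did not overlap and the WT peaks alone passed q 0.01. By rank within the library the groups did overlap: Upk3b ranked 4883 of 11094 and 2877 of 11611 in WT, and 886 of 8472 and 4295 of 10113 in KO, where replicate 1 placed it nearest the top. The WT peaks also lay at different ends: 150 bp past the 3′ end in replicate 1 and 258 bp inside the 5′ end in replicate 2. LIN54 folds were 2.39 and 4.09 in WT replicates 1 and 2, with none in replicate 3, and 4.78 and 4.16 in KO. Both KO folds were above the WT folds and passed q 0.01, with summits at -2 and 61 bp from the start. By rank the order differed, since LIN54-WT replicate 2 placed Upk3b at 2512 of 10809 and the KO libraries at 2968 of 10386 and 3568 of 10863. The p130 folds were 2.89 and 2.75 in WT replicates 1 and 2 and 2.30 and 3.21 in KO replicates 1 and 3, with overlapping ranges.

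Counted by group, 4 of 5 uroplakin genes were occupied in every STAG2-WT library, where 35% of all genes were, and 3 of 5 in every STAG2-KO library, where 25.5% were. For LIN54 the counts were 3 of 5 in WT (23.8% of all genes) and 5 of 5 in KO (35.5%). For p130 they were 1 of 5 in WT (14.3%) and 1 of 5 in KO (8.88%), the same gene, Upk1b, in both. With batch 3 alone the p130-WT count was 3 (23.4% of all genes), since p130-WT replicate 1 had no peak at Upk2 or Upk3a. The counts rest on the window: within 250 bp they were 0 of 5 for STAG2-WT (19.9% of all genes), 1 of 5 for STAG2-KO (12.9%), 0 of 5 for LIN54-WT (13%) and 2 of 5 for LIN54-KO (22.6%). For p130 they were 0 of 5 in WT (5.5%) and 0 of 5 in KO (3.46%).

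With q of 0.01 or below, Upk1a, Upk2 and Upk3b were occupied in both STAG2-WT libraries (3 of 5, against 12.6% of all genes) and Upk2 alone in both STAG2-KO libraries (1 of 5, against 1.9%). LIN54 marked 0 of 5 in every WT library (4.71% of all genes) and Upk2 and Upk3b in both KO libraries (15.8%). For p130 the count was 0 of 5 in WT (0.758%) and 0 of 5 in KO (0.681%). Upk3b was the single uroplakin gene with such a peak in both STAG2-WT libraries and in neither STAG2-KO library, a pattern held by 6.19% of all genes. Its deposited KO peaks, at folds of 3.55 and 2.83, are given above.

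Beyond the gene ends, summits with q of 0.01 or below were collected over each gene and 50000 bp to either side, and neighbouring summits within 250 bp were joined into clusters. The 5 loci held 64 clusters, of which 25 had summits from 2 or more libraries and 39 from 1. STAG2-WT contributed to 50 clusters, STAG2-KO to 12, LIN54-WT to 14, LIN54-KO to 21 and p130 to 0. Positions below are counted in bp from the lower-coordinate end of the gene, and a minus sign marks lower coordinates. The libraries differ in their number of q 0.01 peaks, given above, and its part in these cluster counts was not tested.

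**Figure D2:**
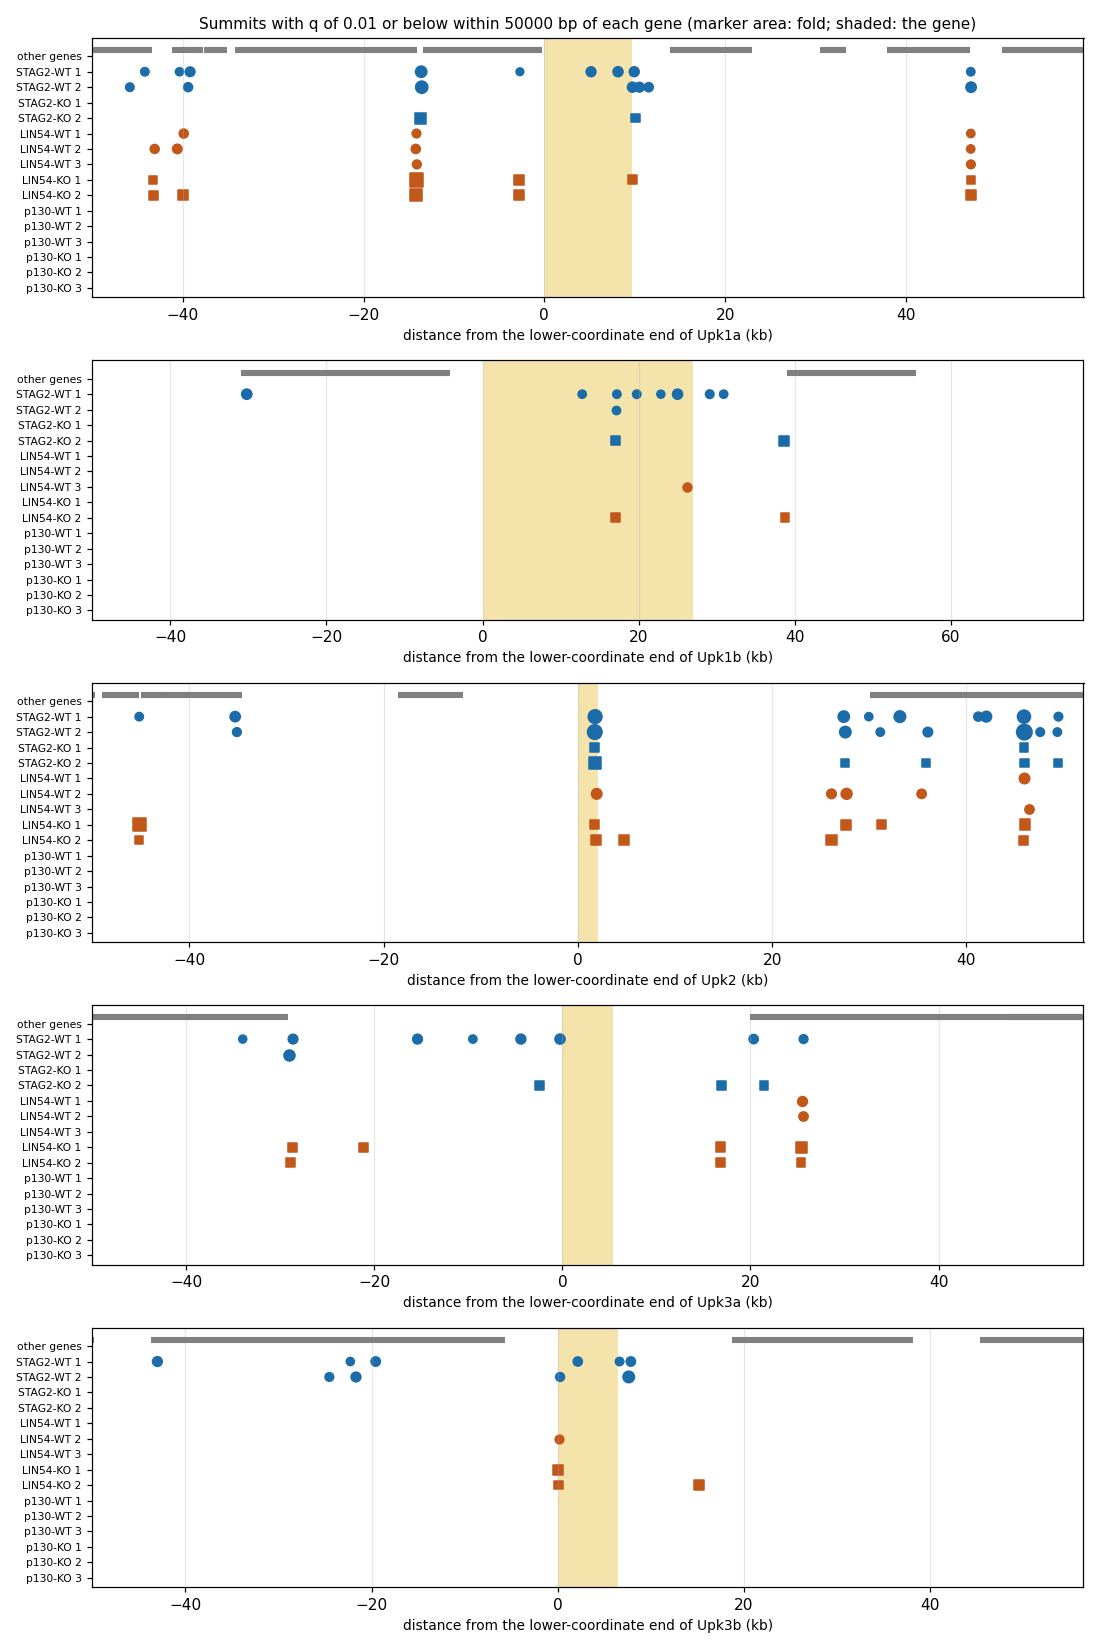
Summits with q of 0.01 or below in the 5 uroplakin loci, by library (rows) and distance in kb from the lower-coordinate end of the gene (horizontal axis). Marker area follows the fold, shading is the uroplakin gene and grey bars are other protein-coding genes. The 6 p130 rows are empty in all 5 panels, and Upk2 has columns of marks at its own end, between the genes and inside its neighbour Bcl9l.

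The Upk2 locus had 17 clusters, the most of the 5, of which 9 were in 2 or more libraries. The cluster at its own end was in 7 libraries: all 4 STAG2, LIN54-WT replicate 2 and both LIN54-KO. A cluster at 45961 bp, inside Bcl9l (a co-activator of beta-catenin), was also in 7 libraries. STAG2 folds there were 9.13 and 12.8 in WT and 3.55 and 4.02 in KO, with no overlap, and STAG2-WT replicate 2 had a higher fold there than at Upk2 itself. LIN54 folds at 45961 bp were 5.87, 3.69 and 3.58 in WT and 5.98 and 4.22 in KO, and these overlapped.

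A cluster at 27528 bp, between Upk2 and Bcl9l and in no gene, was in 5 libraries. STAG2 folds were 6.85 and 6.99 in WT, and KO had no peak in replicate 1 and 3.26 in replicate 2. LIN54 folds were 2.98, 6.33 and 2.17 in WT and 5.87 in KO replicate 1, with none in KO replicate 2. The STAG2-WT libraries were the highest in fold at all 3 of these places, and no p130 library had a q 0.01 peak at any of them. How often this order of folds held over all clusters was not counted. Ranks within the library, which overlapped between genotypes at the Upk2 end, were not taken at the other places.

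**Figure D3:**
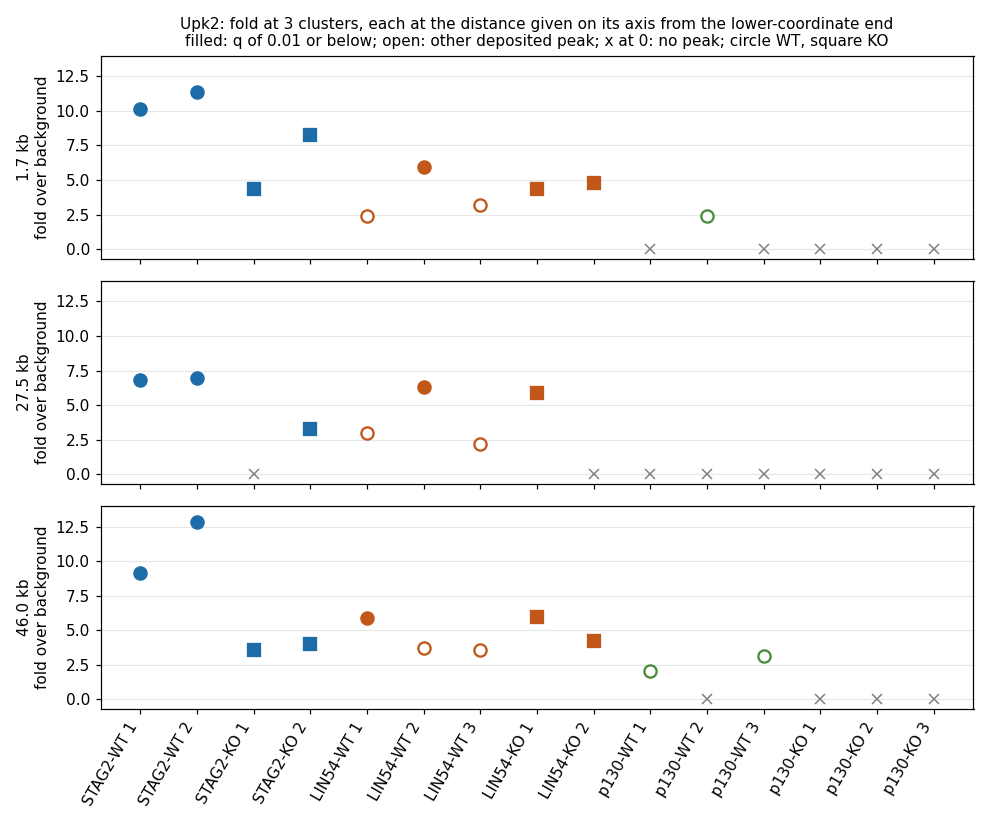
Fold over background (vertical axis) of the highest summit in each library (horizontal axis) at 3 Upk2 clusters, from top to bottom 1738, 27528 and 45961 bp from the lower-coordinate end of the gene. Filled symbols have q of 0.01 or below, open symbols are other deposited peaks and crosses at 0 mark no peak. Circles are WT and squares KO. Both STAG2-WT circles lie above both STAG2-KO values in each panel, and how often this holds over all clusters was not counted.

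The Upk1a locus is dense in genes, with 11 other protein-coding genes in the window, and had 15 clusters, 7 of them at a gene end. The cluster in the most libraries, 7, was at 47176 bp and lay 29 to 70 bp upstream of the start of Rbm42, a gene for an RNA-binding protein. Its folds were 3.72 and 5.73 in STAG2-WT, 3.65, 3.66 and 4.03 in LIN54-WT and 3.42 and 5.70 in LIN54-KO, with no peak in STAG2-KO. The cluster at the Upk1a start was in 4 libraries: both STAG2-WT, 1 STAG2-KO and 1 LIN54-KO.

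At Kmt2b, a histone methyltransferase gene, a cluster at -14146 bp from Upk1a was in all 5 LIN54 libraries. LIN54 folds were 4.0, 4.46 and 4.13 in WT and 9.64 and 8.20 in KO. Both KO values exceeded all WT values, and the STAG2 libraries had no peak there with q of 0.01 or below. A separate cluster at -13625 bp, in the gap between Kmt2b and Zbtb32, was in 3 STAG2 libraries (2 WT and 1 KO) and in no LIN54 library, with folds of 6.63 to 8.02. The 2 clusters lie close enough to be joined at the distance of 500 bp tried as an alternative. A further LIN54 cluster, in 1 WT and both KO libraries with folds of 3.63 to 4.84, lay 58 to 264 bp upstream of the start of Lin37, itself a MuvB subunit gene. The cluster in the gap and that at Lin37 are outside the naming rule, and were picked with their values in view.

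The other 3 loci had fewer shared clusters. Upk1b, with no q 0.01 peak at its ends, had 10 clusters and 2 of them in 2 or more libraries. The first was inside the gene at 17103 bp, with folds of 3.74 and 3.66 in STAG2-WT, 4.14 in STAG2-KO replicate 2 and 4.41 in LIN54-KO replicate 2. Deposited peaks above q 0.01 there were in STAG2-KO replicate 1 (2.15), LIN54-WT replicate 2 (2.29), LIN54-KO replicate 1 (2.74) and p130-WT replicate 3 (1.93). The second, at 38703 bp by an end of Tex55, had folds of 5.33 in STAG2-KO replicate 2 and 4.10 in LIN54-KO replicate 2. Deposited peaks above q 0.01 at this second place had folds of 1.70 and 1.83 in STAG2-WT and 2.83 in STAG2-KO replicate 1. A STAG2-WT replicate 1 summit at -30215 bp inside B4galt4, a galactosyltransferase gene, had a fold of 5.63 and no q 0.01 partner.

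Upk3a had 12 clusters, of which 3 were in 2 or more libraries. The cluster at 25434 bp, inside Fam118a, had LIN54 folds of 5.13, 4.59 and 4.23 in WT and 6.88 and 3.77 in KO, and 4.09 in STAG2-WT replicate 1. Of these, LIN54-WT replicate 3 did not reach q 0.01. Other deposited peaks above q 0.01 there had folds of 3.62 in STAG2-WT replicate 2 and 3.04 and 2.99 in STAG2-KO. In p130 they were 3.25, 3.50 and 1.92 in WT and 2.03 in KO replicate 2. The cluster at -28843 bp, upstream of the start of 5031439G07Rik, had folds of 4.99 and 6.50 in STAG2-WT and 4.53 and 4.70 in LIN54-KO. Deposited peaks above q 0.01 there had folds of 2.19 in STAG2-KO replicate 1 and 2.61 and 2.16 in LIN54-WT replicates 2 and 3. Such peaks were also listed in p130 libraries of both genotypes. The cluster at 16808 bp, in no gene, had 5.11 in STAG2-KO replicate 2 and 5.09 and 3.77 in LIN54-KO. Deposited peaks above q 0.01 were also listed there, at 2.28 and 3.19 in STAG2-WT and 1.99 in p130-WT replicate 3.

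Upk3b also had 10 clusters with 2 shared. The one at its start was in STAG2-WT replicate 2, LIN54-WT replicate 2 and both LIN54-KO libraries, with folds of 4.09 to 4.78. The other lay 1249 bp past the 3′ end of the gene and was in both STAG2-WT libraries alone, at folds of 4.68 and 7.08. Deposited KO peaks at the same place had folds of 2.37 and 3.40, so the KO folds were below the WT folds and peaks were still listed. A STAG2-WT replicate 2 summit at -21677 bp, inside Dtx2 (a Notch pathway ubiquitin ligase gene), had a fold of 5.11. In the whole Upk3b window STAG2-KO had no q 0.01 summit.

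Summed over the 5 windows, STAG2-WT had 41 and 21 peaks with q of 0.01 or below and STAG2-KO had 2 and 12. As a share of the library's own q 0.01 peaks, however, the WT values were 1.59 and 1.57 per 1000 and the KO values 1.61 and 1.77 per 1000. The counts were lower in KO by about as much as the whole library was. LIN54 had 5, 10 and 4 peaks in WT and 15 and 17 in KO, or 1.02, 1.51 and 1.85 per 1000 in WT and 0.95 and 1.3 per 1000 in KO, with overlapping shares. The mean per uroplakin gene was 0.315 to 0.354 per 1000 in the STAG2 libraries, where the mean over all genes was 0.115 to 0.122. In the LIN54 libraries it was 0.19 to 0.369 per 1000, beside 0.111 to 0.152 over all genes. The 5 windows were uneven. In the order Upk1a, Upk1b, Upk2, Upk3a and Upk3b, LIN54-WT had 9, 1, 6, 2 and 1 such peaks summed over its libraries. STAG2-KO had 2, 2, 7, 3 and 0 in the same order. Peaks at neighbouring genes are included, such as the 11 other genes in the Upk1a window. The part of gene density in these means was not tested. All 6 p130 libraries were at 0 in the 5 windows, beside an all-gene mean of 0.149 to 0.165 per 1000 for the window of a single gene, from only 316 to 896 such peaks in each library. A count of 0 in a single library allows up to 3.35 to 9.49 per 1000 for the 5 windows together (3 counts of the library's q 0.01 peaks, for counting error only). Shares like those of the other antibodies over the 5 windows were thus not detectable in any p130 library taken alone. The 6 libraries were not pooled for this limit.

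All deposited peaks in the same windows were then compared between genotypes, per 100000 peaks of the library, with a two-sided exact permutation test over libraries for every protein-coding gene and Benjamini-Hochberg adjustment over 21887 genes within an antibody. This made 15 comparisons of a uroplakin gene and an antibody. The design limits the test: the smallest exact p is 0.3333 for STAG2 and 0.1 for LIN54 and p130. No gene of the 21887 had an adjusted p under 0.05 for any antibody, and 0 had an unadjusted exact p under 0.05. The genotypes did not overlap for 0 of 5 uroplakin genes with STAG2, where 20.3% of all genes were apart and lower in KO and 11.7% apart and higher. They did not overlap for 0 of 5 with LIN54 (15.9% lower and 10.7% higher among all genes).

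For p130, 2 of 5 uroplakin windows were apart and lower in KO (13.2% of all genes) and 1 of 5 apart and higher (5.7% of all genes). At Upk2, the p130-WT libraries had 45, 28 and 26 peaks and the p130-KO libraries 15, 16 and 18. Scaled, the WT mean was 7.81 ± 0.52 per 100000 and the KO mean 4.27 ± 0.31 (± SD, n = 3 per genotype; p = 0.1 by the exact permutation test and 0.529 after adjustment). Every WT library was above every KO library, and the difference exceeded the spread within either group, but this exact p is the smallest the design allows. Set against all genes of the same library by peaks per length, the Upk2 window was above 98.7% to 99.4% of genes in p130-WT and above 43.2% to 61.8% in p130-KO. In the other 9 libraries, those of STAG2 and LIN54, it was above 86.6% to 99.9% of genes, and p130-KO was thus the group in which Upk2 was near the middle of all genes.

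Upk3a had 40, 21 and 25 peaks in p130-WT and 20, 12 and 17 in p130-KO, or 6.76 ± 0.82 and 4.31 ± 1.26 per 100000 (SD, n = 3 each, exact permutation p = 0.1, adjusted p = 0.529). Upk1a stood the other way round, with 19, 15 and 10 peaks in WT and 21, 18 and 22 in KO, or 3.50 ± 0.68 and 5.33 ± 0.70 per 100000 (SD, n = 3 each, exact permutation p = 0.1, adjusted p = 0.529). Its groups were apart once scaled to the library and not by number, and p130-WT replicate 1, of batch 2, has the longest list with 539191 peaks. Within batch 3 (2 WT and 3 KO libraries) all 3 windows stayed apart in the same directions, at 7.55 and 4.27 per 100000 for Upk2 (exact permutation p = 0.1), 6.43 and 4.31 for Upk3a (exact p = 0.2) and 3.49 and 5.33 for Upk1a (exact p = 0.2). With windows of 25000 bp Upk2 and Upk3a were apart and with 100000 bp Upk2 and Upk1a, so Upk2 alone was apart at each width. None of these p130 peaks had q of 0.01 or below. Upk1b and Upk3b overlapped between genotypes, with 6.27 ± 1.25 and 6.44 ± 0.53 per 100000 at Upk1b and 5.86 ± 0.98 and 4.54 ± 1.20 at Upk3b (WT and KO, SD, n = 3 each).

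**Figure D4:**
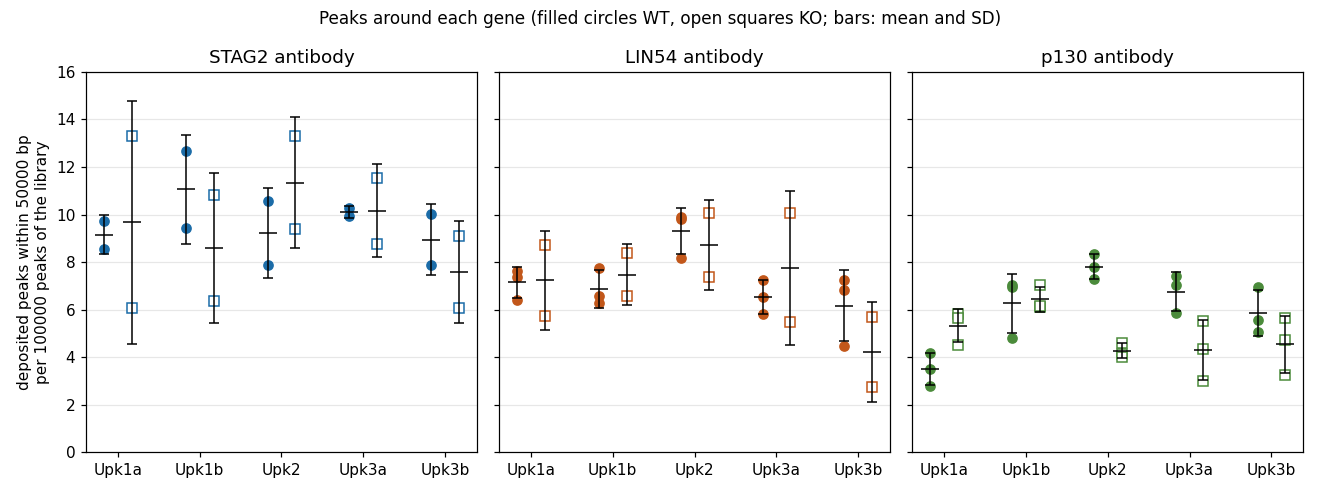
Deposited peaks within 50000 bp of each uroplakin gene per 100000 peaks of the library (vertical axis), by antibody (panels) and gene (horizontal axis). Filled circles are WT libraries, open squares KO libraries, and bars the mean and SD. With p130, Upk2 and Upk3a lie lower in all 3 KO libraries than in any WT library and Upk1a higher, while every STAG2 and LIN54 pair overlaps.

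With STAG2 the means per 100000 were 9.15 ± 0.82 in WT and 9.67 ± 5.11 in KO at Upk1a, and 9.22 ± 1.89 and 11.3 ± 2.76 at Upk2 (SD, n = 2 each). For Upk1b they were 11.1 ± 2.29 and 8.60 ± 3.17, for Upk3a 10.1 ± 0.24 and 10.2 ± 1.95, and for Upk3b 8.95 ± 1.5 and 7.57 ± 2.15. The genotypes overlapped for every gene, and STAG2-KO replicate 2 was above replicate 1 at all 5. With LIN54 the means ranged from 6.18 at Upk3b to 9.30 at Upk2 in WT and from 4.22 at Upk3b to 8.72 at Upk2 in KO, with the adjusted p from 0.806 to 1 (exact permutation test).

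The fold patterns of the uroplakin genes over the 15 libraries were compared as log2 of the highest fold at the gene ends, with a fold of 1 where there was no peak. The 15 points come from 3 antibodies and differ in background and in number of peaks. Libraries of the same antibody are not independent of each other, so the correlations are given as descriptions. Between uroplakin genes Pearson's r ran from -0.240 (Upk1b and Upk3a) to 0.681 (Upk1a and Upk2, the genes of 1 heterodimer). For Upk1b and its partners it was -0.240 with Upk3a and 0.116 with Upk3b. Among 5801 genes with a peak in at least 10 libraries, the pattern most like Upk2 was that of Ghr, the growth hormone receptor (r = 0.950), then Pts (0.935) and Zfp784 (0.934), with a median r of 0.472 over all 5801. For Upk1a these were Gata6, a transcription factor (0.954), Sae1 (0.945) and Sdc1 (0.920), with a median of 0.418. For Upk1b they were Slc35a5 (0.877), Mrps33 (0.829) and Chid1 (0.827), with a median of 0.132. Upk3a was most like Cyb5r1 (0.869), Hgsnat (0.848) and Btc (0.832), with a median of 0.316, and Upk3b like Prdm15 (0.903), Ndufaf1 (0.902) and Zfp983 (0.887), with a median of 0.335.

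Genes of uroplakin transport, urothelial regulators and luminal keratin and barrier genes were counted in the same way at q 0.01. The counts are to be read against the shares of all genes given above for each group. Ends shared with a neighbouring gene could not be told apart. Of 7 genes for the transport of uroplakin vesicles, Rab8a, a small GTPase of exocytosis, was occupied in every library of all 6 groups. Its mean fold was 18.7 ± 5.40 in LIN54-KO (SD, n = 2) and 6.08 ± 1.06 in LIN54-WT (SD, n = 3), and 5.07 ± 0.40 in p130-WT and 7.52 ± 1.94 in p130-KO (SD, n = 3 each), whereas no uroplakin gene had a p130 peak at q 0.01. Rab11a, a GTPase of recycling endosomes, was occupied in every LIN54 library, with mean folds of 5.64 ± 1.21 over the 3 WT and 5.92 ± 0.34 over the 2 KO libraries. Rab8a was the single transport gene of the 7 in both STAG2 and both p130 groups, and Rab11a joined it in both LIN54 groups. The shares of all genes were 12.6% in STAG2-WT and 1.9% in STAG2-KO, 4.71% in LIN54-WT and 15.8% in LIN54-KO. For p130 they were 0.758% in WT and 0.681% in KO. In STAG2-WT, 1 of 7 is near the share. Of 8 urothelial regulators, only Klf5 was occupied in both STAG2-WT libraries (12.6% of all genes) and only Ovol1 in both LIN54-KO libraries (15.8%). A single gene of 8 is near these shares. Of 8 luminal keratin and barrier genes, Cldn4, Krt19 and Krt8 were occupied in both STAG2-WT libraries (3 of 8, against 12.6% of all genes). Their mean folds there were 9.88 ± 2.33, 3.90 ± 0.08 and 9.42 ± 3.56 (SD, n = 2 each). Cldn4 was occupied in both LIN54-KO libraries (1 of 8, against 15.8%), which is near the share. The other groups had 0 of 8 in both lists. Upk3bl, the uroplakin-like neighbour of Upk3b, was occupied in every library of 0 of 6 groups, with either set of peaks.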

How the data were processed

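CUT&RUN peak lists of 15 libraries were used. The submitters' processing notes name build mm10 and the tools MACS2, Bowtie2 and bcl2fastq; versions, settings and the use of a control library are not given in the sources used here. The authors deposited per peak a fold, with −log10 p and −log10 q, a score that was not used, and a summit offset. The fold is the ratio of fragments to background at the summit, each with the same small constant added. The fragment count and background were recovered from the fold and p, whole to within 0.0002 on the log10 scale for 100% of 400 sampled peaks per library.

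Groups came from the labels. Gene positions are from RefSeq's GRCm38.p6 table, which has no strand, and strands are from the promoter table. Named were all 5 uroplakin genes, per gene up to 3 clusters in the most libraries with gene ends within 500 bp, the 3 most correlated genes, and context genes occupied at q 0.01 in every library of a group. The members and lists were chosen with earlier results of these data known. The exact permutation test used the library as unit. Its p is the share of all assignments of these libraries to the genotypes with a difference in means at least as large. It speaks for these libraries alone and does not measure their spread. The alternatives tried were peaks with −log10 q from 2 or from 5, the 20000 best peaks, other windows and joining distances, unscaled counts, a replicate block, batch 3 alone and leaving out each library. The code ran under Python 3.11.15 with pandas 2.3.3, NumPy 2.4.6, Matplotlib 3.10.9 and SciPy 1.17.1 and was tested on simulated data.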

Additional observations from a re-analysis of the deposited data

How the results depend on the processing

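Of 114 alternative values of the group counts, 73 stayed within 1.5 times the main count and 41 moved. The 73 include every count of windows with an adjusted p under 0.05, which the design fixed at 0. They therefore overstate how stable the other counts were. Uroplakin genes occupied in every library numbered 4 (STAG2-WT), 3 (STAG2-KO), 3 (LIN54-WT), 5 (LIN54-KO), 1 (p130-WT) and 1 (p130-KO) with the deposited peaks. With −log10 q of at least 2 they were STAG2-WT 3, STAG2-KO 1, LIN54-WT 0, LIN54-KO 2, p130-WT 0 and p130-KO 0. With −log10 q of at least 5 they were STAG2-WT 2 and 0 in STAG2-KO, LIN54-WT, LIN54-KO, p130-WT and p130-KO. With the 20000 best peaks per library, LIN54-WT had 0, LIN54-KO 2 and both p130 groups 0. With a window of 250 bp STAG2-WT had 0, STAG2-KO 1, LIN54-WT 0, LIN54-KO 2 and both p130 groups 0, so that the order of STAG2-WT and STAG2-KO turned, and with 1000 bp p130-WT had 2. Batch 3 alone gave p130-WT 3. Leaving out each replicate gave p130-WT 2 to 3, and p130-KO 1 to 2 (2 without replicate 2).

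Windows apart between genotypes numbered 0 for STAG2, 0 for LIN54 and 3 for p130. With −log10 q of at least 2 they were 3, 2 and 0, and with unscaled numbers 1 for STAG2 and 1 for LIN54. Leaving out each replicate gave STAG2 1 to 4 and LIN54 0 to 4. With a STAG2 or LIN54-KO library left out, 1 library stands for its group. With a LIN54-WT library left out that is not so, and the count was 0 to 1. Without STAG2-KO replicate 1, 3 STAG2 windows were higher in KO, and without replicate 2, 4 were lower, the opposite direction. Likewise, without LIN54-KO replicate 1, 4 LIN54 windows were lower in KO, and without replicate 2, 4 were higher. The p130 count was 3 to 4 with each replicate left out. The number of windows with an adjusted p under 0.05 was 0 under every alternative. No alternative allowed an exact p under 0.05, so this outcome was fixed in advance. The causes of these changes were not tested.

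The labels number replicates within groups without saying that a number marks a shared animal or day. With the replicate block, 2 STAG2 and 1 LIN54 windows were apart, and 3 of p130. No adjusted p was under 0.05, a value the block could not reach. Deviations of same-numbered libraries correlated at 0.049 for STAG2, 0.076 and 0.036 for LIN54, and 0.025, 0.003 and -0.037 for p130, so the numbers were not taken as pairs. Motif words were not searched around summits, which needs a genome sequence.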
